A study of Mus musculus with 15 samples.

Results

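Major histocompatibility complex (MHC) class I molecules display peptides made inside a cell to CD8 T cells, and 9 genes that build and load them were followed in sorted mouse microglia, the resident macrophages of the brain. The 9 genes were chosen by symbol: the light chain B2m, the heavy chains H2-D1, H2-K1, H2-Q6, H2-Q7 and H2-T23, and the loading genes Tap1, Tap2 and Tapbp. All 9 were in the deposited table of 13834 genes and all 9 were among the 13175 genes tested. RNA was sequenced in 15 libraries of 4 groups from mouse brain. AF-high (n = 5) and AF-low (n = 3) microglia were sorted for high or low autofluorescence from untreated mice of 18 months. The young group (n = 3) held microglia of untreated mice of 3 months, and the PLX5622 group (n = 4) microglia of mice of 18 months treated with PLX5622, a compound that blocks the CSF1 receptor and is used to deplete microglia. No source used here gives the gate of the young and PLX5622 cells, the dose and schedule of the compound, or the strain and sex of the mice, so age and gate cannot be told apart between old and young groups. Libraries of a group are titled as biological replicates, but no source used here says if they stand for single mice or pools. Nor is it stated if AF-high and AF-low libraries of the same number share mice. The p-values thus cover only the spread seen between these libraries, taken as independent.

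A class I molecule is a heavy chain held together with beta2-microglobulin, the product of B2m, and a short peptide. Proteasomes cut cytosolic proteins into peptides, the TAP transporter, a pair of Tap1 and Tap2 subunits, pumps them into the endoplasmic reticulum, and tapasin, the product of Tapbp, ties the empty heavy chain to TAP until a peptide fits. H2-K1 and H2-D1 are classical heavy chains, while H2-Q6 and H2-Q7 (Qa-2 family) and H2-T23 (Qa-1, a ligand of NKG2 receptors of NK and T cells) are non-classical ones. Interferons and NF-kappaB raise the transcription of these genes in many cell types, and resting microglia are generally held to carry little class I at the surface.

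The members lay on 2 chromosomes of the mouse build GRCm38, and all are annotated as protein coding. B2m is on chromosome 2 (122147686 to 122153083, plus strand) and the other 8 are on chromosome 17. There Tapbp (33915899 to 33929292), H2-K1 (33996017 to 34000347, minus strand), Tap1 (34187553 to 34197225) and Tap2 (34203527 to 34216321) come first along the chromosome. H2-D1 (35262730 to 35267499), H2-Q6 (35424850 to 35430055), H2-Q7 (35439155 to 35443773) and H2-T23 (36029773 to 36032855, minus strand) follow.

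RefSeq (GRCm38.p6) gave a promoter, 250 bases before to 50 after the start, for 8 of the 9 members, and Tap2 had no entry. The stretches of 5 members are shown because they are the members whose promoter held a match to the NF-kappaB consensus, and because those of H2-Q6 and H2-Q7 are alike. Each is read 5′ to 3′ on the strand of its gene, with the matches to 3 motifs in capitals: NF-kappaB (starting with GGG or, on the reverse strand, ending with CCC), ISRE (GAAANNGAAA) and the Y box (CCAAT, or ATTGG on the reverse strand).
B2m (chr2:122147538-122147648, plus strand): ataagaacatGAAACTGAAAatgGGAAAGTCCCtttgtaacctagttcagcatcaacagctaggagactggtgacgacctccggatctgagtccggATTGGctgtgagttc
H2-K1 (chr17:34000325-34000468, minus strand): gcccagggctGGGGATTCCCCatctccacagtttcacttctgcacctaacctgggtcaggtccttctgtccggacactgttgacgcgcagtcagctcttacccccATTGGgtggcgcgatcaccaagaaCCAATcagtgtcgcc
H2-D1 (chr17:35262913-35263055, plus strand): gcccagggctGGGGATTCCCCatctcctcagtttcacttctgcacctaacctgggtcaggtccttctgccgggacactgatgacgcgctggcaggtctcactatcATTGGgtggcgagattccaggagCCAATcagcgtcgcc
H2-Q6 (chr17:35424667-35424809, plus strand): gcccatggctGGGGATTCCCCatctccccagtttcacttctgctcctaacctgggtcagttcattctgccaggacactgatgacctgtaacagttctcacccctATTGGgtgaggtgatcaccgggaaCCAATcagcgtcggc
H2-Q7 (chr17:35439012-35439153, plus strand): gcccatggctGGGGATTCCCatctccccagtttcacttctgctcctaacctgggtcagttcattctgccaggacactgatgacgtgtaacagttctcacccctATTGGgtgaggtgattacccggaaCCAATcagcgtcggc
All motifs were searched on both strands, and a match is a description of these letters. The NF-kappaB consensus was found in 5 of the 8 members and in 8.46% of 32851 promoters of 300 bases. In H2-K1, H2-D1 and H2-Q6 it takes the form of GGGGATTCCCC, a stretch that holds overlapping matches on both strands, and in H2-Q7 that of GGGGATTCCC, 1 base shorter. ISRE letters in the exact form GAAANNGAAA were found in B2m and H2-T23 (3.44% of promoters). Looser forms of the motif were not searched, so the other members may hold them. In B2m they lie 139 to 130 bases before the start, next to the NF-kappaB match at 126 to 117 bases before it. The Y box was found in all 8 (37.4% of promoters), and the GAS letters TTCNNNGAA in 0 of the 8 (8.3% of promoters). The H2-Q6 and H2-Q7 promoters were identical at 85% of 300 aligned bases, those of H2-D1 and H2-Q6 at 80.7%, and those of B2m and H2-Q7 at 59%. The alignment took nothing off for mismatches, and the least alike pair, H2-K1 and Tapbp, still reached 51%. The 59% thus lies near the low end of what this alignment gives.

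Levels below are in TPM, transcript abundance scaled by transcript length and by library total. Differences are of log2(TPM + 1) ± SE from limma, fitted over 13175 genes, with Benjamini-Hochberg adjusted p over all of them and a call at an adjusted p under 0.05. A TPM value keeps no read number, so the depth behind each value is unknown. The cells looked like microglia in every library: all 16 microglial markers were present, at 12200 to 19240 TPM summed. Their level moved with the groups: all 16 were higher in AF-high than in AF-low (median difference 0.27) and 14 of 16 were lower in AF-low than in young microglia (median -0.31), with 0 called in either. Of 14 T and NK cell markers, 2 were in the table. Several libraries stood apart. Young 1 and 2 carried 7861 and 5151 TPM of choroid plexus and ependyma transcripts, against 187.1 in young 3 and 28.49 to 349.2 in the old groups. The same libraries carried 978.1 and 723.2 TPM of oligodendrocyte markers, against 57.3 to 124.3 in the other 13, and 255.8 and 282.5 TPM of astrocyte markers, against 78.32 to 142.8. AF-high 2 and 3 had 5.376% and 7.657% mitochondrial transcripts, against 1.571% to 2.698% elsewhere. AF-low 1 had the lowest microglial sum, 12200 TPM. It also had 73.19 TPM of the endothelial marker Cdh5, against 0.1267 to 16.07 elsewhere. Its sum of endothelial markers, 260.1 TPM, lay within the 182.3 to 332.9 of the other libraries. Dab2, a marker of border-associated macrophages, was at 285.9 TPM in AF-low 1, against 35.72 to 170.3 elsewhere. Satellite-like transcripts, from 12 numbered gene models chosen after their values were seen, took 7.969% to 14.12% of TPM in PLX5622 libraries and 11.21% in young 1, against at most 2.117% in the other 10. Markers of border-associated macrophages, which sit along vessels and meninges, moved with the groups. All 12 were measured, and their sum was lowest in PLX5622 libraries (85.42 to 114.3 TPM), then in young (125.2 to 150.4), AF-high (171.8 to 298.1) and AF-low ones (282.7 to 443.4). The part of any of these in the results below was not tested, and in sorted bulk samples fewer cells of a type and less RNA per cell cannot be told apart.

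The light chain dominated the family. B2m had the 6th highest mean of 13834 genes, 7609 TPM over all libraries, followed by H2-D1 (860.8), H2-K1 (621.1), H2-Q6 (204.4), H2-Q7 (174.3) and H2-T23 (150). The loading genes were far lower, with Tapbp at 61.43 TPM, Tap1 at 22.08 and Tap2 at 9.726. The 5 heavy chains together came to 1732 TPM ± 290.7 (SD, n = 3) in young, 2250 ± 108 (n = 3) in AF-low, 2063 ± 443.7 (n = 5) in AF-high and 1973 ± 103.2 (n = 4) in PLX5622 microglia. B2m transcripts outnumbered that sum in every library, by 2.921 to 6.073 times.

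**Figure D1:**
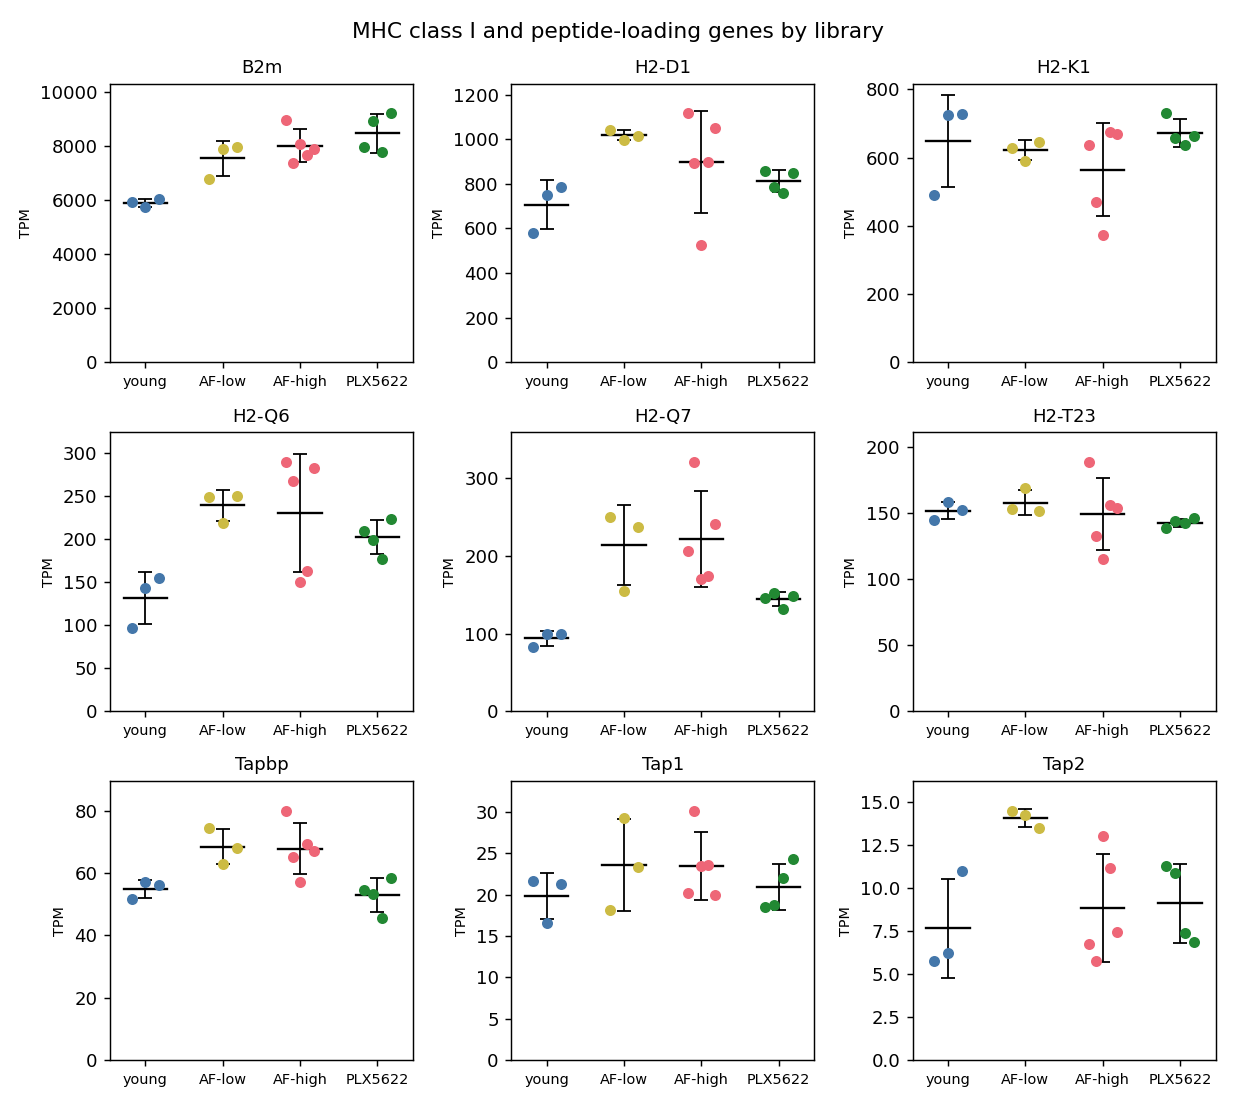
TPM of the 9 genes (y axes, each from 0) in the 15 libraries (points), by group, with the mean (line) and SD (bars). The 3 young libraries are the lowest for B2m and H2-Q7, while those of H2-K1 and H2-T23 lie among the old ones.

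H2-Q7, a non-classical heavy chain of the Qa-2 family, was the 1 member called, and it was called higher in old than in young microglia. It was at 82.69, 99.5 and 99.54 TPM in young 1, 2 and 3. In AF-low 1, 2 and 3 it was at 250.3, 154.9 and 236.9 TPM. In AF-high 1 to 5 it was at 206.5, 320.9, 170, 173.8 and 241 TPM. The lowest untreated old library, AF-low 2, thus lay well above the highest young one, and the 2 old gates overlapped. The PLX5622 libraries, at 146.1, 151.7, 131.5 and 148.7 TPM, lay between: all 4 above every young and below every untreated old library. Between untreated old microglia (the mean of AF-high and AF-low) and young ones the difference was 1.18 ± 0.19 (95% interval 0.78 to 1.58; limma adjusted p = 0.0265), the 7th smallest p of all genes. In that comparison 0.182% of all genes were called, and 1 of the 9 members was. Each gate alone was near the threshold, at 1.20 ± 0.20 for AF-high (adjusted p = 0.0582) and 1.15 ± 0.22 for AF-low (adjusted p = 0.0716).

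The call on H2-Q7 was lost in 5 of the 15 fits that left out 1 library. The difference was 1.09 without young 1 and 1.22 without young 2, with adjusted p = 0.195 and 0.148. The call was also lost without AF-low 1 (adjusted p = 0.064), AF-low 3 (0.0522) or PLX5622 2 (0.0522). It was kept without AF-high 2 (1.11, adjusted p = 0.0215), the library with the highest level. AF-high 2 also had 40.28 TPM of the 2 T and NK cell markers, against 4.686 to 11.17 elsewhere. That sum was nearly all Cd3d (39.66 TPM), while the other marker, Cd8a, had its lowest value of the 15 libraries there (0.6178 TPM). With young 1 and 2 both left aside (added after seeing the data), the difference was 1.09 with an adjusted p of 1, the 1 remaining young library being taken to vary like the other groups. Over all alternatives run, the adjusted p ranged from 0.000583 (array weights) to that 1. H2-Q7 transcripts can also share reads with other genes. Of the 31-base words in its transcripts (GENCODE M21), 39.2% occur in transcripts of other genes: 22.4% in H2-Q10, 15.5% in H2-Q5 and 8.72% in H2-Q6. H2-Q10 was at 74.62 TPM ± 12.54 (n = 3) in young and 84.71 ± 24.82 (n = 5) in AF-high, with overlapping groups. How reads were split among these genes was not tested.

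H2-Q6, the neighbour of H2-Q7, was also lowest in the young and next lowest in the PLX5622 group by mean, with AF-low and AF-high above. Young 1, 2 and 3 had 96.51, 142.5 and 154.3 TPM, and AF-low 1, 2 and 3 had 247.9, 218.3 and 249.9. AF-high 1 to 5 were at 288.7, 266.6, 149.3, 162.9 and 282.5 TPM, and PLX5622 1 to 4 at 209, 198, 177 and 223.3. AF-high 3 lay within the young range, so untreated old and young overlapped, by that 1 library. The difference between untreated old and young was 0.83 ± 0.21 (adjusted p = 0.123) and did not pass. Of its 31-base words 51.8% are shared, most with H2-Q4 (24.6%) and H2-Q7 (18.4%). When H2-Q6 and H2-Q7 were added up, which removes the split between them, the sum was 225 TPM ± 40.1 (n = 3) in young and 452.6 ± 96.95 (n = 8) in untreated old microglia, a difference of 0.99 ± 0.19 that passed narrowly (adjusted p = 0.0481). Neither gate alone passed against young (limma adjusted p = 0.104 for AF-high and 0.118 for AF-low). The sum was not refitted with libraries left out or under other settings. Words shared with H2-Q4, H2-Q5 and H2-Q10 remain in it.

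B2m was lowest in the 3 young libraries. Young 1, 2 and 3 had 5917, 5734 and 6030 TPM, and AF-low 1, 2 and 3 had 6787, 7882 and 7950. AF-high 1 to 5 were at 8976, 7364, 8085, 7666 and 7896 TPM, and PLX5622 1 to 4 at 7953, 8921, 7769 and 9200. Every one of the 12 old libraries lay above every young one. Of all genes 44 (0.334%) had that pattern, and of the 9 members B2m and H2-Q7 did. The difference from young was 0.39 ± 0.12 for untreated old (adjusted p = 0.197), 0.44 ± 0.13 for AF-high (adjusted p = 0.241), 0.35 ± 0.15 for AF-low (adjusted p = 0.352) and 0.52 ± 0.14 for PLX5622 microglia (adjusted p = 0.295), and none passed.

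The classical heavy chains differed from each other. H2-D1 was at 581.7, 751.2 and 787.6 TPM in young, at 1043, 995.6 and 1017 in AF-low, at 1116, 896.1, 524.9, 897.4 and 1050 in AF-high and at 855.8, 785.4, 759.5 and 849.9 in PLX5622 libraries. AF-high 3 was below all 3 young libraries, and the other 7 untreated old ones were above them. The difference between untreated old and young was 0.42 ± 0.18 (95% interval 0.03 to 0.81; adjusted p = 0.36). H2-K1 was at 491.5, 725.4 and 728.4 TPM in young, at 628.9, 588.4 and 645.7 in AF-low, at 637.5, 469.6, 371.5, 673.4 and 669 in AF-high and at 729.1, 657.5, 635.7 and 664.1 in PLX5622 libraries. Its groups overlapped throughout, with a difference of -0.13 ± 0.18 (95% interval -0.51 to 0.25; adjusted p = 0.828). H2-T23 varied least among the heavy chains, at 152 TPM ± 6.595 (n = 3) in young, 158.1 ± 9.725 (n = 3) in AF-low, 149.5 ± 27.53 (n = 5) in AF-high and 142.8 ± 3.198 (n = 4) in PLX5622 microglia. Its difference between untreated old and young was 0.01 ± 0.13 (95% interval -0.26 to 0.28; adjusted p = 0.989), which turned negative under quantile normalization (-0.076).

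Ratios within a library do not depend on its scaling, and they are given without a test. Only B2m per heavy chain sum was planned. The others set members with higher means in untreated old than in young libraries against H2-K1 or the 5 heavy chains. How many other gene pairs separate the groups as cleanly was not counted. H2-Q6 and H2-Q7 together made up 12.82%, 12.89% and 13.2% of the 5 heavy chains in young 1, 2 and 3. Their share was 16.7% to 18.31% in PLX5622, 17.55% to 21.44% in AF-low and 16.31% to 28.16% in AF-high libraries. All 12 old libraries were above all 3 young ones, and young 1, with its choroid plexus transcripts and its low heavy chain sum of 1398 TPM, had nearly the share of young 3. H2-D1 per H2-K1 was 1.035 to 1.183 in young and 1.174 to 1.28 in PLX5622 libraries, against 1.575 to 1.692 in AF-low and 1.333 to 1.908 in AF-high ones. The 8 untreated old libraries were thus above the 7 others, and AF-high 3, low in both genes, stood at 1.413. H2-D1 shares 13.8% of its 31-base words with H2-K1, and how reads were split between them was not tested. H2-Q7 per H2-K1 was 0.1474 ± 0.01809 (n = 3) in young, 0.2155 ± 0.0142 (n = 4) in PLX5622, 0.3428 ± 0.07054 (n = 3) in AF-low and 0.4166 ± 0.1656 (n = 5) in AF-high microglia. B2m per heavy chain sum was 3.055 to 4.234 in young, 2.921 to 3.707 in AF-low, 3.295 to 6.073 in AF-high and 3.826 to 4.606 in PLX5622 libraries, so that young and old groups overlapped.

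**Figure D2:**
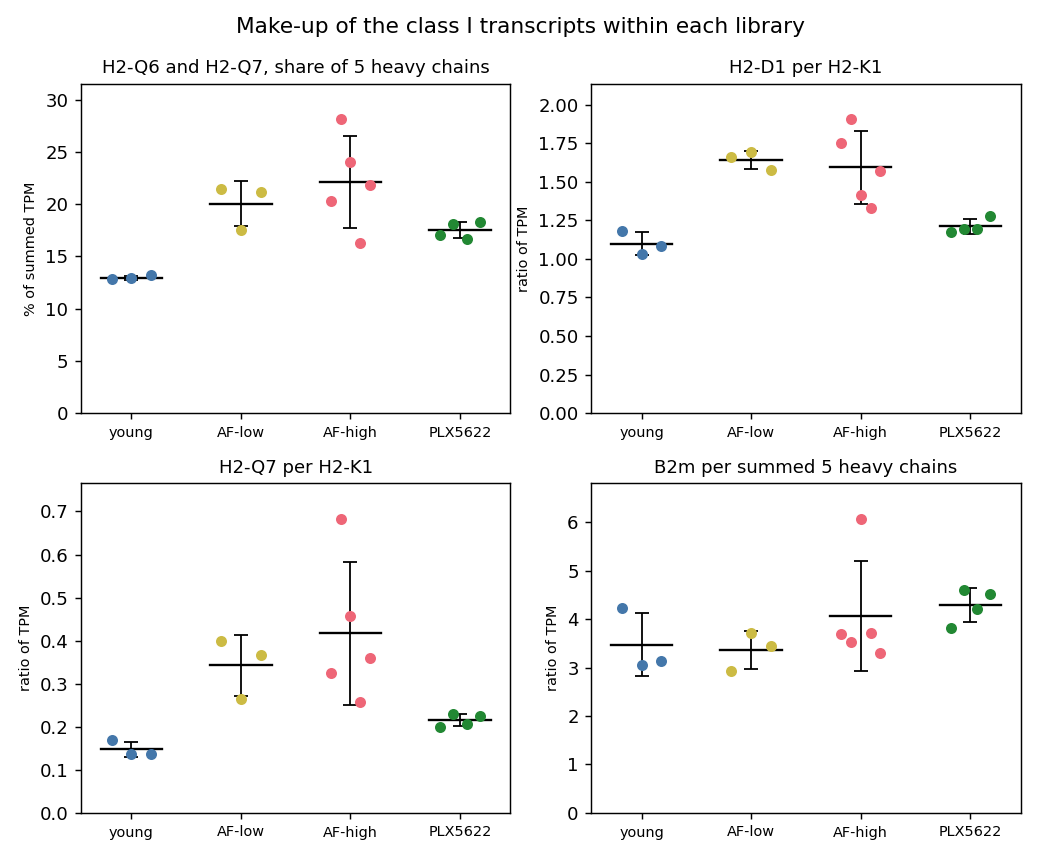
Make-up of the class I transcripts in each library (points), as a percent of summed TPM or a ratio of TPM (y axes from 0), by group, with the mean (line) and SD (bars). The share of H2-Q6 and H2-Q7 is 12.82% to 13.2% in young and 16.31% to 28.16% in old libraries, and H2-D1 per H2-K1 separates the 8 untreated old libraries from the other 7.

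The transporter subunits differed from each other: Tap1 overlapped between all groups, and Tap2 was highest in AF-low microglia. Tap1 was at 21.6, 16.62 and 21.28 TPM in young, 18.11, 29.25 and 23.32 in AF-low, 20.24, 30.11, 23.41, 23.63 and 20.01 in AF-high and 18.48, 18.78, 22.03 and 24.34 in PLX5622 libraries. Untreated old and young differed by 0.22 ± 0.18 (adjusted p = 0.651). Tap2 was at 5.763, 6.247 and 10.98 TPM in young, 14.48, 14.28 and 13.48 in AF-low, 6.752, 5.746, 13.06, 11.19 and 7.463 in AF-high and 11.3, 10.91, 7.381 and 6.866 in PLX5622 libraries. The AF-low libraries were the 3 highest of all 15, and how many genes had that pattern was not counted. Between AF-low and AF-high, young or PLX5622 libraries, 2.76%, 19.3% and 16.2% of all genes had no overlap. AF-low and young differed by 0.85 ± 0.31 (adjusted p = 0.285), and AF-high and AF-low by -0.67 ± 0.27 (adjusted p = 0.545). Untreated old and young differed by 0.51 ± 0.26 (adjusted p = 0.445), a value that young 1 and 2 set: with both left aside it was -0.0043.

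Tapbp, the tapasin gene, was similarly low in young (51.65, 57.07 and 56.3 TPM) and in PLX5622 libraries (54.49, 53.16, 45.56 and 58.52). It was at 74.38, 63.05 and 68.19 TPM in AF-low and at 79.9, 65.31, 57.17, 69.5 and 67.15 in AF-high ones. All 8 untreated old libraries were above the young ones, AF-high 3 barely, and 7 of them were above every PLX5622 library. The differences were 0.30 ± 0.12 for untreated old against young (95% interval 0.04 to 0.56; adjusted p = 0.333) and -0.36 ± 0.11 for PLX5622 against untreated old (95% interval -0.60 to -0.12; adjusted p = 0.116), and neither passed.

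Taken by comparison, 8 of the 9 members were positive in untreated old against young microglia, with a median difference of 0.39 against -0.06 for all genes, H2-T23 turning negative under quantile normalization and with satellite-like and mitochondrial genes removed (-0.0346). Members without overlap between the groups were 3, all higher (B2m, H2-Q7 and Tapbp), where 3.68% of all genes had no overlap. For AF-high against young 0% of genes were called and 0 of 9 members (4 at an unadjusted p under 0.05, as were 1446 genes), 7 were positive (median 0.29 against -0.08), and the same 3 had no overlap (7.78% of all genes). For AF-low against young 0.0455% of genes were called and 0 members (5 at an unadjusted p under 0.05, as were 1551 genes). There 8 were positive (median 0.35 against -0.04), and 6 had no overlap (19.3% of all genes): B2m, H2-D1, H2-Q6, H2-Q7, Tap2 and Tapbp. The comparisons with young share the 3 young libraries.

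Between the gates, AF-high against AF-low, 0% of genes and 0 members were called (limma; 1 member and 1082 genes at an unadjusted p under 0.05). The median of the members was -0.10 against -0.04 for all genes. Tap2 alone had no overlap, where 2.76% of all genes had none. H2-Q7, at 222.4 TPM ± 62.05 (n = 5) and 214.1 ± 51.65 (n = 3), and B2m, at 7997 ± 609.9 and 7540 ± 652.9, differed by less than the spread within a gate.

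In PLX5622 against untreated old microglia 1.36% of genes were called, and 0 of 9 members (2 at an unadjusted p under 0.05, H2-Q7 and Tapbp, as were 2200 genes). H2-Q7 had the largest difference, -0.56 ± 0.17 (95% interval -0.92 to -0.20; adjusted p = 0.112), and was the 1 member without overlap, where 3.26% of all genes had none. Without AF-low 2 its adjusted p was 0.0377. The remaining members differed by -0.27 (Tap2, adjusted p = 0.605), -0.21 (H2-D1, 0.565), -0.19 (H2-Q6, 0.665), -0.15 (Tap1, 0.687) and 0.20 (H2-K1, 0.579). B2m differed by 0.12 (adjusted p = 0.623) and H2-T23 by -0.10 (adjusted p = 0.732), and under quantile normalization these were -0.15 and 0.0654. The median of the members was -0.19, against -0.03 for all genes. With satellite-like and mitochondrial genes removed (added after seeing the data) these medians were -0.07 and 0.08, a shift of the median of all genes by more than 0.1 on the log2 scale.

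Against AF-high microglia alone 0.63% of genes were called and 0 members (2 at an unadjusted p under 0.05), and H2-Q7 alone had no overlap (6.55% of all genes; difference -0.58 ± 0.18, adjusted p = 0.142). Against AF-low microglia 0.144% were called and 0 members (2 at an unadjusted p under 0.05), and H2-D1, H2-Q7, H2-T23, Tap2 and Tapbp were lower without overlap (16.2% of all genes). H2-Q7 there differed by -0.53 ± 0.21 (adjusted p = 0.269) and Tapbp by -0.37 ± 0.14 (adjusted p = 0.24). Against young microglia 0.0911% were called and 0 members (3 at an unadjusted p under 0.05, as were 689 genes), and B2m, H2-Q6 and H2-Q7 were higher without overlap (16% of all genes). H2-Q7 differed from young by 0.62 ± 0.21 (adjusted p = 0.621) and H2-Q6 by 0.64 ± 0.23 (adjusted p = 0.715). With 0 members called, the position of the PLX5622 libraries can be described by level only. They overlapped untreated old microglia for B2m, were near young for Tapbp and the ratio of H2-D1 to H2-K1, and lay between both for H2-Q7.

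**Figure D3:**
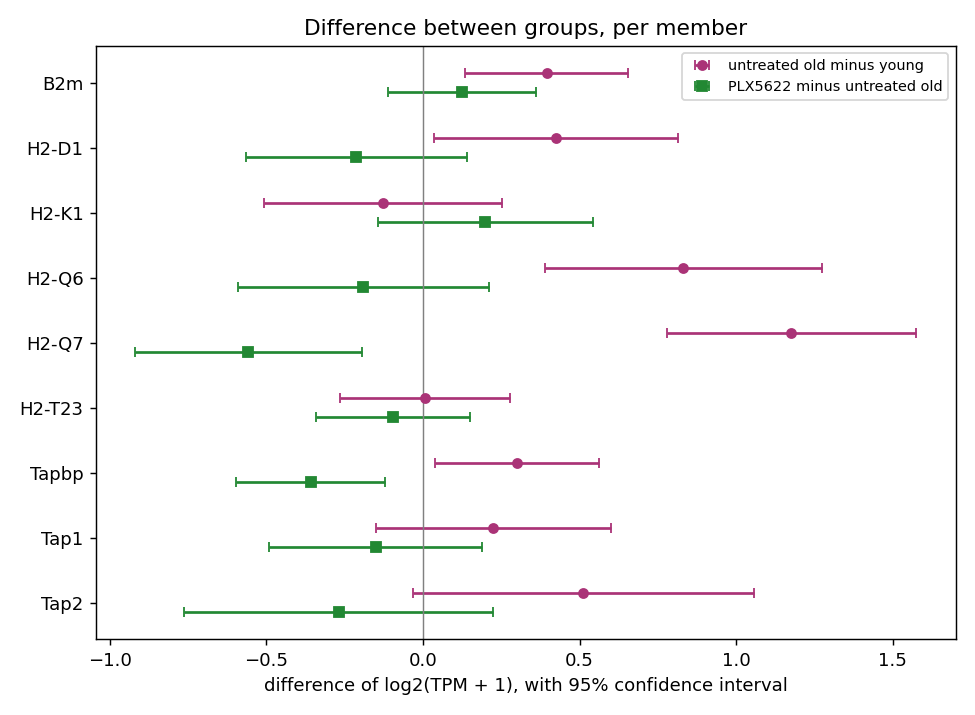
Difference in log2(TPM + 1) (x axis) for each gene between untreated old and young (circles) and between PLX5622 and untreated old microglia (squares), with 95% confidence intervals. H2-Q7 has the largest difference in both, 1.18 and -0.56, and the interval of H2-T23 spans 0 in both.

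The wider pathway was read from 6 lists of genes. Of 22 other class I heavy chains 11 were measured and 0 were called in any comparison. H2-Q5, which shares 43.2% of its 31-base words with H2-Q7, was at 82.28 TPM ± 17.64 (n = 3) in young and 121.5 ± 27.04 (n = 5) in AF-high microglia (untreated old against young 0.59 ± 0.16, adjusted p = 0.151). H2-M3, which presents formylated peptides, had another order: 46.29, 36.82, 34.92 and 39.36 TPM in PLX5622 libraries against 17.98 to 34.11 in the other 11. The 4 PLX5622 libraries were the highest of all 15, with a difference of 0.51 ± 0.16 from untreated old (adjusted p = 0.119) and 0.68 ± 0.20 from young microglia (adjusted p = 0.391). Of all genes, 3.26% had no overlap between PLX5622 and untreated old libraries and 16% between PLX5622 and young ones. Of 12 class I-like molecules 7 were measured and 0 called. Fcgrt, the neonatal Fc receptor, which also pairs with B2m, was at 42.74 TPM ± 1.2 (n = 3) in young and 30.36 ± 7.14 (n = 5) in AF-high microglia (untreated old against young -0.43 ± 0.17, adjusted p = 0.314).

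Upstream of the transporter, 4 of 5 genes of the immunoproteasome, a form of the proteasome, and its activator were measured and 0 called. Psmb9, a catalytic subunit, was at 63.11, 32.93 and 25.89 TPM in young, 9.68, 32.83 and 13.04 in AF-low and 35.49, 2.478, 17.43, 17.36 and 12 in AF-high libraries. Young and untreated old libraries overlapped, and the difference of -1.32 ± 0.54 had an adjusted p of 0.336. It had the opposite sign to that of B2m and H2-Q7. Psme1, an activator subunit, was at 222.3 TPM ± 41.48 (n = 5) in AF-high and 155.3 ± 25.36 (n = 4) in PLX5622 microglia (PLX5622 against untreated old -0.41 ± 0.14, adjusted p = 0.152). Of 17 genes of peptide trimming and folding 15 were measured and 0 called. The peptidase Tpp2 had -0.27 ± 0.13 in untreated old against young (adjusted p = 0.432) and the folding sensor Uggt1 0.25 ± 0.11 in PLX5622 against untreated old microglia (adjusted p = 0.256).

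Among 23 regulators, all measured, 2 were called lower in PLX5622 against untreated old microglia and 0 higher. Of all genes 1.36% were called in that comparison, 142 lower and 37 higher. Stat2, which carries type I interferon signals to the nucleus, was at 649.3, 837.1, 624 and 827.5 TPM in PLX5622 libraries, against 841.7 to 1052 in young, 970 to 1777 in AF-high and 1264 to 1557 in AF-low ones. The PLX5622 libraries were the 4 lowest of 15. Of all genes, 3.26% had no overlap between PLX5622 and untreated old libraries and 16% between PLX5622 and young ones. The difference was -0.87 ± 0.15 from untreated old (adjusted p = 0.0204) and -0.82 ± 0.17 from AF-high microglia (adjusted p = 0.0411). Ifnar1, a subunit of the type I interferon receptor, was at 46.08, 43.14, 35.21 and 48.64 TPM in PLX5622, 43.61 to 55.18 in young, 56.4 to 117.4 in AF-low and 61.46 to 140.7 in AF-high libraries (-0.99 ± 0.23 from untreated old, adjusted p = 0.0487; 0.79 ± 0.25 for untreated old against young, adjusted p = 0.218). Stat2 lost its call from untreated old without PLX5622 1, 2 or 3 (adjusted p = 0.0988, 0.0592 and 0.126), and Ifnar1 without any 1 of 11 libraries (0.0512 to 0.224). The Stat2 call from AF-high was also lost without any 1 of 11 libraries (0.0503 to 0.18), and with quantile normalization (0.0627), median centring (0.0508), only the groups compared (0.0996) or the replicate block (0.111). Ifngr2, of the interferon gamma receptor (-0.65 ± 0.19), and the NF-kappaB subunit Rela (-0.70 ± 0.20) each had an adjusted p of 0.0946, and Irf1, an activator of class I promoters, had 0.73 ± 0.31 (adjusted p = 0.251). Border-associated macrophage markers were lower in the same comparison, 11 of 12 and 5 of them called, where 1.36% of all genes were called. Their part was not tested.

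Of 11 receptors of class I and their relatives 6 were measured. In untreated old against young microglia 1 was called, higher, where 0.182% of all genes were called. Lilrb4a, an inhibitory receptor of the leukocyte immunoglobulin-like family that is not an established class I receptor, was at 87.48, 110.5 and 111.7 TPM in young, 329, 192.2 and 245.7 in AF-low, 215.8, 170.7, 151.4, 171 and 187.3 in AF-high and 200.3, 169.1, 165.5 and 198 in PLX5622 libraries. All 12 old libraries were above all 3 young ones, a pattern of 0.334% of all genes. The difference was 1.03 ± 0.16 for untreated old (adjusted p = 0.0258) and 1.27 ± 0.19 for AF-low microglia (adjusted p = 0.0374). The first call was lost without young 1, young 2 or AF-low 3 (adjusted p = 0.16, 0.148 and 0.0522), and the latter without any 1 of 9 libraries (0.0545 to 0.193). Pirb, an inhibitory receptor that binds class I, was at 11.75, 12.29 and 12.6 TPM in young and 13.54 to 24.09 in untreated old libraries. These did not overlap, where 3.68% of all genes had no overlap between untreated old and young libraries. The difference of 0.55 ± 0.18 had an adjusted p of 0.221.

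**Figure D4:**
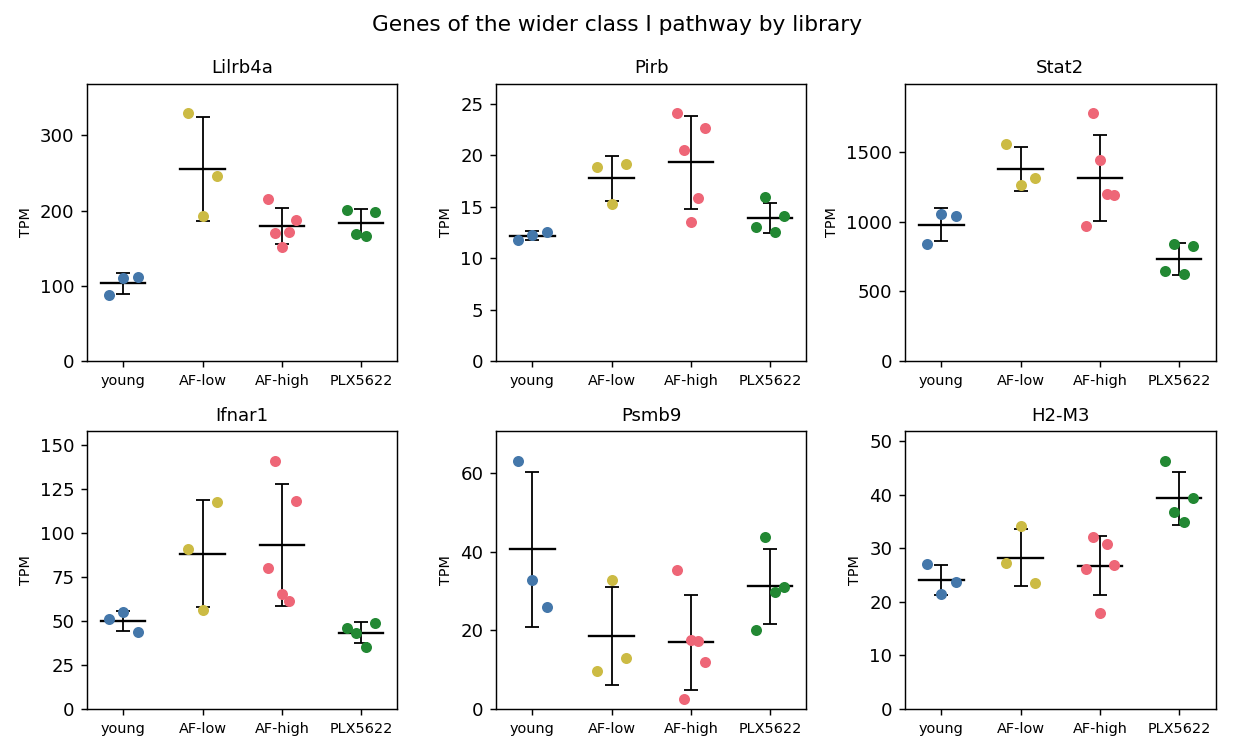
TPM of 6 genes of the wider pathway (y axes from 0) in the 15 libraries (points), by group, with the mean (line) and SD (bars). Lilrb4a is lowest in the 3 young libraries, Stat2 is lowest and H2-M3 highest in the 4 PLX5622 libraries.

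Within groups, the members did not vary as 1 unit. Over the deviations of the 15 libraries from their group means, which share each library's scaling, H2-D1 correlated with H2-K1 (Pearson's r = 0.873), H2-Q6 (0.826) and H2-T23 (0.8), and H2-Q6 with H2-Q7 (0.699). These heavy chains can share reads. Of the 31-base words of H2-D1, 13.8% occur in H2-K1, 6.87% in H2-Q6 and 5.91% in H2-T23. Of those of H2-Q6, 18.4% occur in H2-Q7. The part of shared reads in the r values of these pairs was not tested. B2m stood apart from H2-Q7 (r = -0.285), and Tap1 ran against H2-K1 (r = -0.432). The lowest values of H2-D1, H2-K1 and H2-T23 were all those of AF-high 3, the library with the most mitochondrial transcripts.

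**Figure D5:**
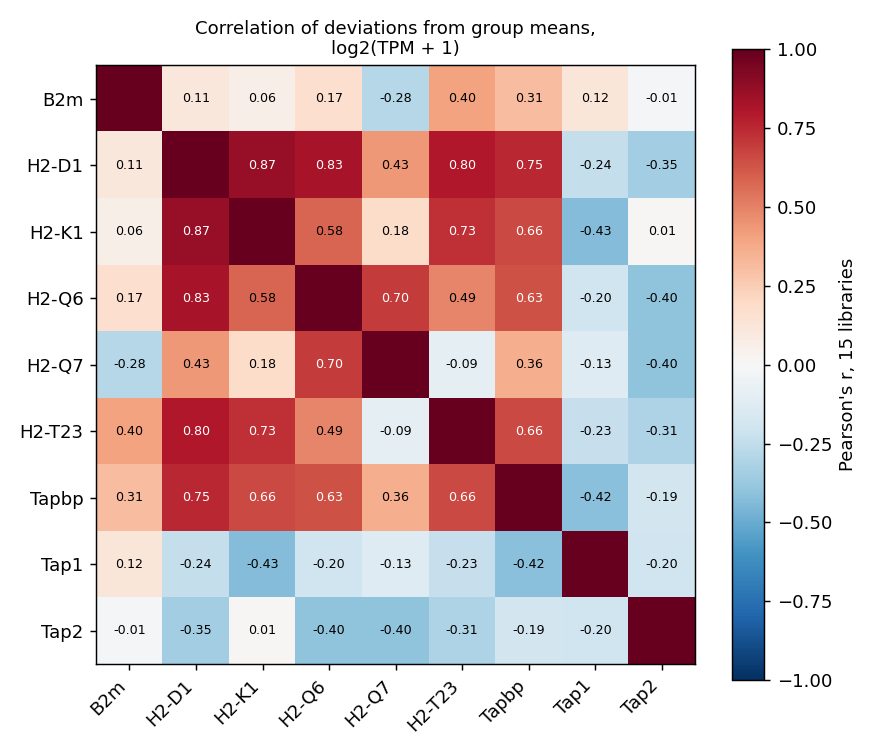
Pearson's r (colour and number) between the deviations of each pair of genes from their group means in log2(TPM + 1), over 15 libraries. H2-D1, H2-K1, H2-Q6, H2-T23 and Tapbp form a positive group, and Tap1 and Tap2 are negative or near 0 against its members.

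Genes most like 6 members were taken by Pearson's r of log2(TPM + 1) over the 15 libraries among 9986 genes with a mean of at least 5 TPM, group differences included. Nearest to B2m were Bcl2a1a (r = 0.867), Lyz2 (0.837), Hcar2 (0.823), Ly9 (0.811) and Ildr2 (0.766). Nearest to H2-Q7 were Nkapd1 (0.911), Stat6 (0.897), Gpr84 (0.892), Apaf1 (0.89) and Tns1 (0.889), and the likeness to all 5 held within groups, where r was 0.843 to 0.911. That of B2m to Hcar2 did not (r = 0.008). H2-K1 was near to Ftl1 (0.895), Spg21 (0.855), Ubb (0.852) and Atf4 (0.852; 0.965 within groups). Tap1 was nearest to Psmb10 (0.809), the 1 gene of the pathway lists among the neighbours named here, and near to Igsf8 (0.776), Manea (0.763) and Aaas (0.755). Tap2 was nearest to Zfp113 (0.832), Ttc32 (0.823), Deaf1 (0.795), Loxl2 (0.776) and Blzf1 (0.77), and Tapbp to Sh3bgrl3 (0.933), Tnfrsf12a (0.918), Ciao2b (0.912), Mrps18b (0.912) and Nfkbib (0.911). With 15 points and so many genes compared, such values are a description only.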

How the data were processed

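RNA of microglia sorted by flow cytometry was extracted, amplified to cDNA and sequenced from low input, per the labels. The authors deposited 1 table of TPM with 1 column per library, and its columns were matched to libraries by the short names in the labels. The tools were FastQC 0.11.8, Salmon 1.0.0 and DESeq2 (no version given) with GRCm38 (mm10), per the submitters' processing notes, and neither the filter on genes nor the transcript index is named in them. The table holds 0 values of 0, library totals of 956489 to 963145 TPM, and 19 symbols turned into dates. Genes at 1 TPM or more in at least 3 libraries (13175) were fitted as log2(TPM + 1), a scale that understates the change of low genes, with limma 3.58.1 in R 4.3.3 (all 15 libraries, 1 mean per group, variance trend, 11 residual degrees of freedom, two-sided tests, Benjamini-Hochberg adjustment per comparison). The fit was also run on simulated data with independent normal noise and no outlying libraries, unlike the data here. Its outcome is not reported here and is not used as support.

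Other settings were a pseudocount of 0.1, no filter, a filter at 5 TPM, quantile normalization, median centring, only the groups compared, array weights, a replicate block, H2-Q6 and H2-Q7 summed and each library left out; 3 more were chosen after seeing the data. Same-numbered libraries of different groups did not deviate together (r -0.081 to 0.141), so the numbers were not taken as pairs in the main fit. With so few pairs, these values cannot tell if AF-high and AF-low libraries of the same number share mice. Named are all members, each list gene called in any comparison or among the 3 smallest p of a list in a comparison described, and the 5 most similar genes of 6 members, passing over numbered gene models; some of these are not reported here. The 9 members, the lists and this rule were chosen with earlier results of these data known. The satellite-like models (12) were picked after their values were seen. Promoters are from RefSeq (GRCm38.p6), gene coordinates and shared 31-base words from GENCODE M21, which is annotation of the authors' build, read with Python 3.11.15 and Biopython 1.88.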

Additional observations from a re-analysis of the deposited data

How the results depend on the processing

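Of 1431 refits of 53 changes under 12 other settings and 15 left-out libraries, 1320 kept direction and side of the threshold. The 1 member called in untreated old against young became 0 with only the groups compared, with the replicate block and with young 1 and 2 left aside, and 3 with array weights; leaving out 1 library gave 0 to 1. H2-Q7 had adjusted p = 0.145 with only the groups compared and 0.12 with the replicate block. Whether libraries of the same number share mice is not known. From 0 called, members became 1 for AF-high and for AF-low against young with median centring and with array weights, 1 against AF-high for PLX5622 with array weights, 1 against young for PLX5622 with only the groups compared and 2 with array weights, and 2 for PLX5622 against untreated old with array weights. Leaving out 1 library gave 0 to 1 in AF-high against young, AF-low against young and PLX5622 against untreated old. Array weights raised the calls over all genes from 24 to 643 in untreated old against young, and the median-centred, quantile and satellite-free scales lowered them from 179 to 87, 89 and 85 in PLX5622 against untreated old; the cause was not tested.

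Wider pathway calls in AF-low against young (1) became 0 with only the groups compared, the replicate block, young 1 and 2 left aside, or 3 old libraries (AF-high 2 and 3, AF-low 1) left aside. In PLX5622 against AF-high (1) they became 0 with quantile normalization, median centring, only the groups compared, the replicate block, young 1 and 2 left aside or satellite-like and mitochondrial genes removed. In untreated old against young (1) they became 0 with only the groups compared, the replicate block or young 1 and 2 left aside. In PLX5622 against untreated old (2) they became 1 with no filter, quantile normalization, median centring or satellite-like and mitochondrial genes removed, and 0 with only the groups compared, the replicate block or young 1 and 2 left aside. In PLX5622 against young (0) they became 1 with quantile normalization, median centring, satellite-like and mitochondrial genes removed or the 3 old libraries left aside, and 2 with only the groups compared. Array weights gave 1 in AF-high against young, 4 in PLX5622 against AF-high, 1 against AF-low, 4 against young, 4 in untreated old against young and 7 in PLX5622 against untreated old. Leaving out 1 library gave 0 to 2 in AF-low against young and PLX5622 against AF-high, 0 to 4 in PLX5622 against AF-low and against untreated old, and 0 to 1 in untreated old against young.

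Signs turned for values near 0. H2-T23 in untreated old against young was -0.076 with quantile normalization, -0.0117 with the replicate block and -0.0346 with satellite-like and mitochondrial genes removed, and -0.0374 to 0.0505 with 1 library left out. Tap2 was -0.0043 with young 1 and 2 left aside. In PLX5622 against untreated old, B2m was -0.15 with quantile normalization, and H2-T23 0.0654 with it and 0.0292 with satellite-like and mitochondrial genes removed. Depth is unknown for TPM, which limits the low genes Tap1 and Tap2 most.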
